A study of Mus musculus with 9 samples.

Results

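The tissue described here is the lip lining (labial mucosa) of mice of the strain labelled B6, sampled by biopsy and sequenced as bulk polyadenylated RNA. Its members are the 3 libraries whose titles carry B6, replicates 1 to 3, of 9 libraries in the series. The labels give no mutation, treatment, age or sex for these mice. Per the protocol, the mice had been infected before the biopsy, and for the agent, dose and time no value is given in the sources used here. All 3 libraries share this history, so nothing below sets infected against uninfected tissue. The labels name the cells as ILC1, type 1 innate lymphoid cells, a rare group of lymphocytes, while the source is given as a whole mucosal biopsy.

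The lip is lined by stratified squamous epithelium. Its basal cells divide and make the keratins Krt5 and Krt14. Cells moving up through a lining that stays soft switch to Krt4 and Krt13, whereas those of cornifying skin switch to Krt1 and Krt10. Haired lip skin, with follicles and sebaceous glands, lies beside the mucosa, and the striated orbicularis muscle lies under it. Minor salivary glands, vessels, nerves and immune cells sit in the connective tissue between.

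The values are expected counts, estimated reads per gene that need not be whole. Totals per library ran from 28065745 to 40873064. Levels are counts scaled to a common library total (CPM), so a higher share of one kind of transcript lowers all others. For levels of different genes, counts were divided by transcript length and rescaled to a common total (TPM). In every library 13778 genes reached 1 CPM, and 30886 names had no count in any. Between 352 and 410 genes supplied 50% of the counts of a library. Pairs of libraries correlated at r = 0.990 to 0.993 across genes, which are not independent replicates. They nevertheless differed by more than counting noise, and chi-square divided by its degrees of freedom was 24.4 to 59.3 for the pairs. The labels do not say whether the libraries came from separate animals, so the spread given as SD (n = 3) may be technical. The female transcript Xist stood at 360, 360 and 307 CPM. Ddx3y, Eif2s3y, Kdm5d and Uty of the Y chromosome had no count, which by a limit of 3 counts allows up to 0.0299 CPM each over the pooled counts. Intervals and limits here cover counting error only.

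Squamous epithelium and skeletal muscle supplied most of the counts that fell into any of the 8 tissue classes. The 81 genes of squamous epithelium took 12.7, 14.7 and 16.7% of the counts in replicates 1, 2 and 3, a mean of 14.7% ± 1.98. Those of skeletal muscle, 47 genes, took 5.52, 5.01 and 4.63%, a mean of 5.05% ± 0.448. Stroma followed with 0.478% ± 0.0857, hair with 0.448% ± 0.0656, vessel with 0.214% ± 0.0382 and gland with 0.211% ± 0.0748. Immune genes, 124 in number, took 0.0959% ± 0.00820, and nerve genes 0.0529% ± 0.00683. Stroma and hair differed by less than their spread, as did vessel and gland. In bulk tissue, fewer cells of a type and less RNA per cell cannot be told apart. The classes hold different numbers of genes, so these shares describe the lists and not the proportions of cells.

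Per transcript length, epithelium and muscle stayed first and second, with summed levels of 110218 ± 15708 and 50869 ± 4433 TPM. Hair had the next highest mean with each of 3 definitions of transcript length. It stood at 4879 ± 762 TPM with the median transcript, 6542 with the longest and 7660 with the union of exons. With the median transcript, hair and stroma differed by less than their spread. In replicate 2 stroma was the higher, at 5058 against 4677 TPM. The order of stroma and vessel depended on that choice. Stroma stood at 4172 TPM with the median transcript and at 2235 TPM with the union of exons, while vessel stood at 3368 and 4193 TPM. Erythroid genes, counted here with vessel, supplied 2790 of its 3368 TPM, so this level mostly describes blood and not vessel walls.

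**Figure D1:**
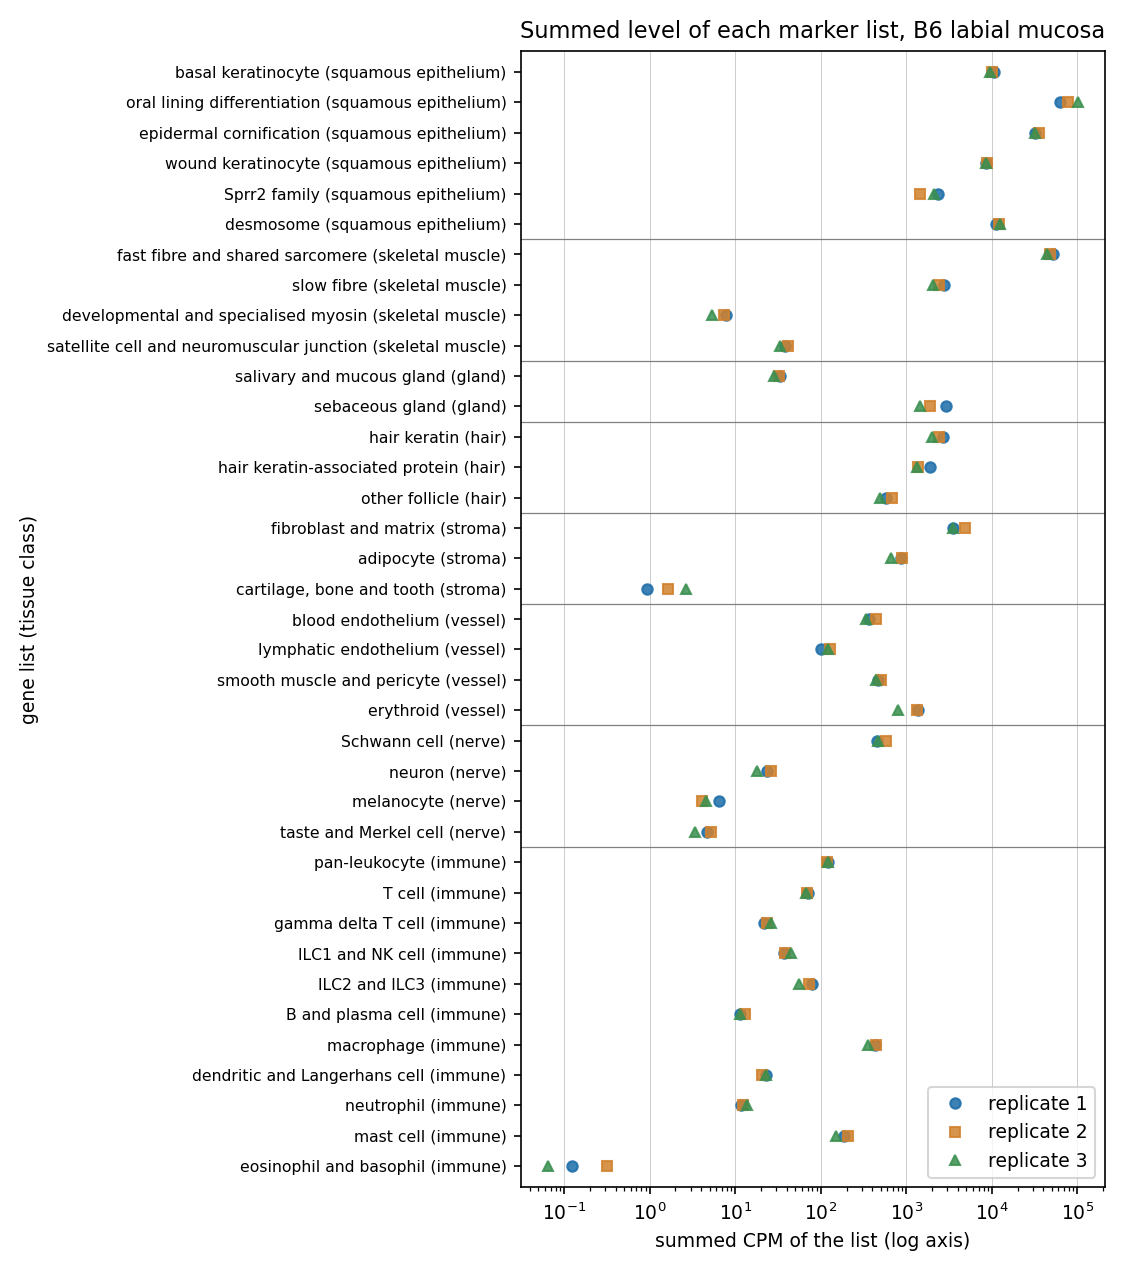
Summed CPM of each marker list on a log axis, grouped by tissue class, with 1 symbol per library. The oral lining list, from 62428 to 102355 CPM, and the fast fibre list, from 44152 to 52393 CPM, lie far to the right, while the list of eosinophils and basophils stays under 1 CPM in every library.

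Keratins of the oral lining led the nuclear genes, leaving out the pseudogene copies of mitochondrial DNA treated further on. Krt13 stood at 29012, 35032 and 46741 CPM in replicates 1, 2 and 3, and its type II partner Krt4 at 23757, 31589 and 41905 CPM. Together the pair took 5.28, 6.66 and 8.86% of all counts, with the highest share in replicate 3. Of the 25 most abundant nuclear genes, 13 belonged to the squamous class and 6 to the muscle class. The other 6 were the translation factor Eef1a1, the glycolytic enzymes Aldoa and Gapdh, the actin-severing protein Gsn, the tropomyosin Tpm2 and the calmodulin-like Calm4.

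**Figure D2:**
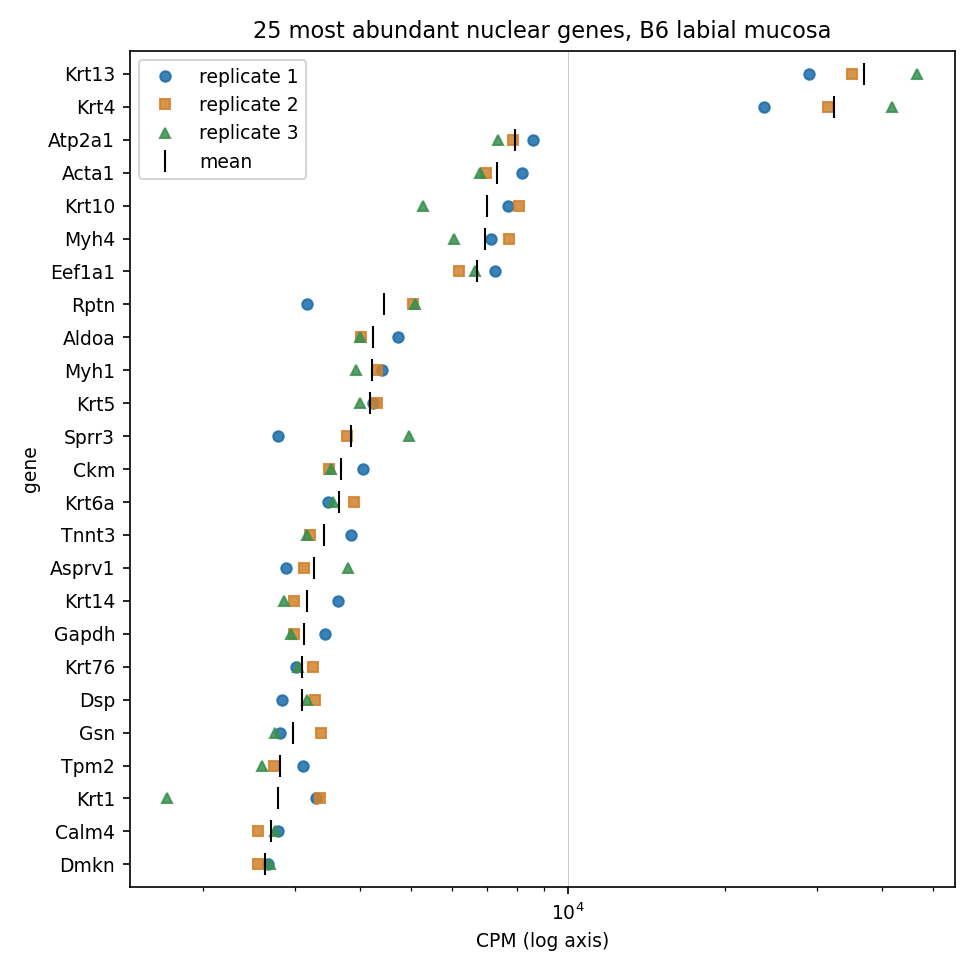
CPM of the 25 most abundant nuclear genes on a log axis, with 1 symbol per library and a black bar for the mean. Krt13 and Krt4 stand apart at the top with means of 36928 and 32417 CPM, and the next gene, Atp2a1, has a mean of 7922 CPM.

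Transcript length reordered this ranking, and 13 of the 25 genes were also among the 25 highest nuclear genes in TPM. The long transcripts of Myh4, Myh1, Rptn and Dsp dropped out. Short ones entered, among them Krtdap, a secreted keratinocyte protein, at 4260 ± 393 TPM, myoglobin (Mb) at 4257 ± 528 TPM, and Mylpf, the fast myosin regulatory light chain, at 4134 ± 507 TPM. Krt13 remained first at 30325 ± 7763 TPM.

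Mitochondrially encoded genes took 5.38 to 6.02% of the counts. The cytochrome oxidase subunit mt-Co1 was the third most abundant gene, at 23343, 25419 and 22527 CPM. It was followed among them by mt-Cytb at 8214 ± 361 CPM, mt-Nd4 at 6083 ± 339, mt-Nd1 at 5006 ± 322 and mt-Nd2 at 4542 ± 270 CPM. A further 2.72 to 3.03% of the counts were assigned to 7 pseudogenes on chromosome 1 between positions 24611535 and 24616197 of GRCm38, which are nuclear copies of mitochondrial DNA. How reads were divided between the copies and the mitochondrial genes cannot be told from the files, so the levels of both are uncertain.

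Keratin genes as a family took 9.00, 10.4 and 11.9% of the counts. Of 54 keratin genes, 48 reached 1 CPM in every library and 26 had a mean of 100 CPM or more. Krt10, the type I keratin of cornifying skin, was the third keratin in TPM at 7167 ± 1521, after Krt13 and Krt4. The basal pair came next, with Krt5 at 2579 ± 112 and Krt14 at 2518 ± 277 TPM, which differed by less than their spread. Krt6a, a keratin of oral and wounded epithelium, stood at 2169 ± 173 TPM and Krt76, a keratin known from the palate and gums, at 1820 ± 108 TPM. Krt1, the usual partner of Krt10, reached 1537 ± 510 TPM, a ratio of 0.210 ± 0.0312 to Krt10. Krt4 to Krt13 was 0.676 ± 0.0360 and Krt5 to Krt14 was 1.03 ± 0.115.

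**Figure D3:**
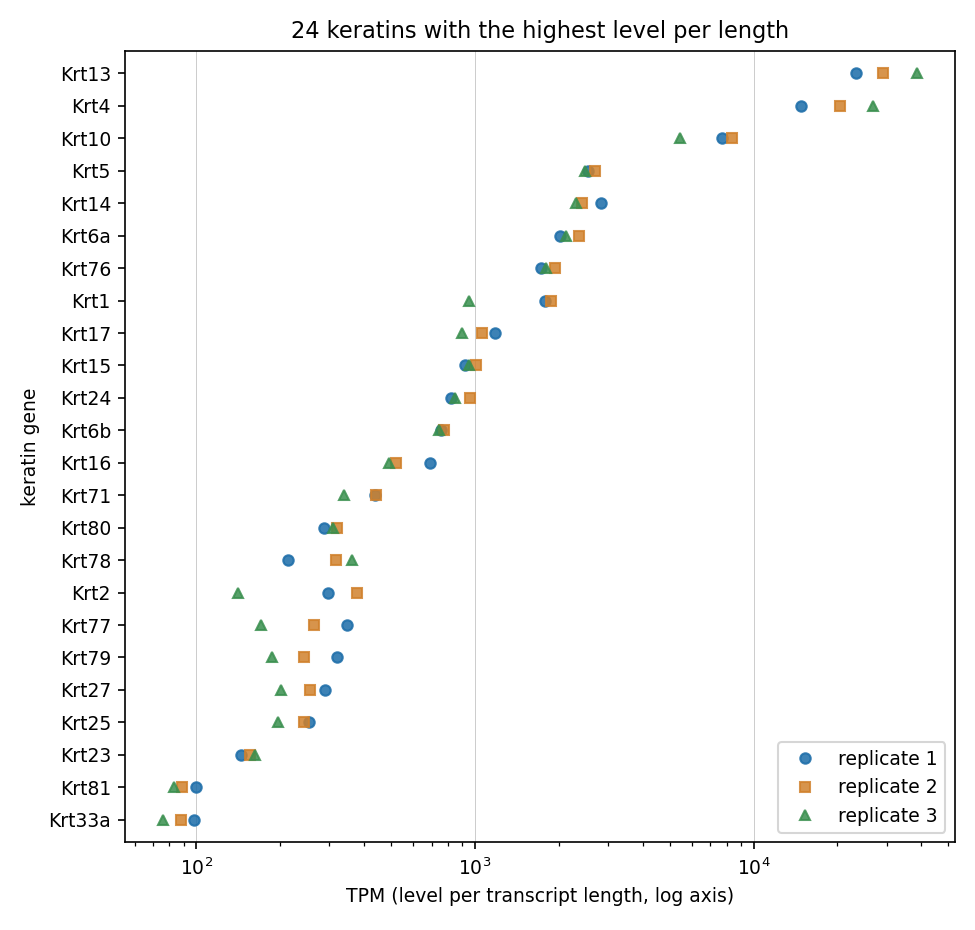
TPM of the 24 keratins with the highest level per length, on a log axis, with 1 symbol per library. Replicate 3 is highest for Krt13 and Krt4 and lowest for Krt10, Krt1, Krt2 and Krt77, while Krt5, Krt15 and Krt6b lie close together in all 3 libraries.

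The balance between lining and cornifying keratins differed between the libraries. Krt10 stood at 7700, 8050 and 5292 CPM and Krt1 at 3301, 3354 and 1710 CPM in replicates 1, 2 and 3, so both were lowest where Krt4 and Krt13 were highest. Krt4 and Krt13 together exceeded Krt1 and Krt10 together 4.01, 4.84 and 10.2 times in TPM. Being ratios within a library, these do not depend on the library total.

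The 11 genes of oral lining differentiation summed to 62428, 78716 and 102355 CPM, and each of the 11 was lowest in replicate 1. Sprr3, a proline-rich envelope protein of internal squamous linings, stood at 2780, 3773 and 4962 CPM. Krt78 stood at 555, 794 and 910 CPM and the envelope plakin periplakin (Ppl) at 991, 1342 and 1563 CPM. In 9 of the 11, replicate 3 was highest; the exceptions were Krt76 and Crnn (cornulin), at 142, 242 and 204 CPM. None of the 11 was 2-fold or more apart between libraries, and their median log2 ratio of highest to lowest library was 0.66, beside 0.21 over the 11303 genes that averaged at least 5 CPM. Over those 11303 genes, 43.9% were highest in replicate 1, 37.0% in replicate 2 and 19.1% in replicate 3, while 27.5% were lowest in replicate 1, 21.5% in replicate 2 and 51.0% in replicate 3. These shares depend on scaling: with TMM factors 40.2, 27.9 and 31.9% were highest and 32.7, 34.0 and 33.3% lowest in replicates 1, 2 and 3.

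Of the 28 genes of epidermal cornification, all above 1 CPM in every library, 5 were 2-fold or more apart: Krt2, Krt77, involucrin (Ivl), Lce1m and Flg2. Across all genes compared, 0.823% were that far apart. All 5 were lowest in replicate 3, and 0.398% of all genes compared were both that far apart and lowest in replicate 3. Krt2, a keratin of the upper epidermis, stood at 584, 714 and 270 CPM and Krt77 at 771, 563 and 366 CPM. Flg2, a filaggrin-like protein of cornified skin, stood at 152, 156 and 74.4 CPM, and Lce1m, a late cornified envelope protein, at 110, 94.1 and 52.2 CPM. Other members were highest in replicate 3, so the list did not share an order of libraries. Transglutaminase 3 (Tgm3) stood at 744, 884 and 1370 CPM, cornifelin (Cnfn) at 939, 1059 and 1376 CPM and the protease Asprv1 at 2882, 3127 and 3790 CPM. Loricrin (Lor), the main envelope protein of skin, stood at 1918, 2603 and 2545 CPM. The 5 calls were 2 without replicate 1 and 0 without replicate 3. They were 4 with TMM library scaling and 2 with median-ratio scaling.

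The basal keratinocyte list varied little, with 0 of 11 genes 2-fold apart and a median log2 ratio of 0.15. Krt5 stood at 4228, 4316 and 3998 CPM, Krt15 at 1180, 1242 and 1186 CPM, and the hemidesmosome collagen Col17a1 at 743, 787 and 735 CPM. Trp63, the transcription factor of stratified epithelial progenitors, stood at 194, 203 and 175 CPM. Among the 16 proliferation genes above 5 CPM none was 2-fold apart, and the replication clamp Pcna was the highest in CPM, at 70.4, 64.3 and 60.9. The wound keratinocyte genes Krt6a, Krt16 and Krt17 were all abundant, at 3643, 657 and 1199 CPM on average. Krt16 was highest in replicate 1, at 815 against 594 and 561 CPM.

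Sprr2a2 held 91.2% of the counts of the Sprr2 family, small proline-rich envelope proteins that epithelia produce under stress. It stood at 2150, 1305 and 1939 CPM and was lowest in replicate 2. Sprr2i was 2-fold apart, at 12.0, 2.00 and 7.17 CPM. These genes are near-identical copies, so the division of counts among them is uncertain. Desmosomal genes were steady by comparison, with desmoplakin (Dsp) at 2840, 3281 and 3172 CPM and 0 of 12 members 2-fold apart.

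Promoter sequences are shown for 4 genes that stand for the main patterns: Krt10 for cornifying epithelium, Acta1 for muscle, and Isg15 and Ifit1 for the interferon-induced genes that varied most between libraries. The sequences are from RefSeq, GRCm38.p6. Each gives the 120 bases before the gene's start, 5′ to 3′ on the gene's own strand, with matches to the searched motifs in capitals: TATAAA for Krt10, a CArG box and TATAAA for Acta1, and, on either strand, GAAA followed after any 2 bases by GAAA for the others.
Krt10, chr11:99389365-99389484, minus strand: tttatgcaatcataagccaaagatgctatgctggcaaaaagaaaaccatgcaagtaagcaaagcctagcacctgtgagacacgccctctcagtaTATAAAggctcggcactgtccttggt
Acta1, chr8:123894776-123894895, minus strand: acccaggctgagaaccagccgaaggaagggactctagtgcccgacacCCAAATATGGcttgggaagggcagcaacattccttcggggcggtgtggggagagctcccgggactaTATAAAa
Isg15, chr4:156200819-156200938, minus strand: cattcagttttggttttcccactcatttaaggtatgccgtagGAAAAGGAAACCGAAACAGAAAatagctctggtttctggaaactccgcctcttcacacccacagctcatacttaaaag
Ifit1, chr19:34640769-34640888, plus strand: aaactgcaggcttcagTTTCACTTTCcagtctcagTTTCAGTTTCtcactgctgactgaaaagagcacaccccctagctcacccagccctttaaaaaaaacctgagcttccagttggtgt

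The windows searched run from 250 bases before to 50 bases after the start of 27025 genes. TATAAA, searched on the gene's own strand, is the core of the TATA box that places the start of transcription. It was present in 8.881% of all windows, and in 17 of the 72 windows found for the 100 most abundant nuclear coding genes, 23.61%. The CArG box, bound by serum response factor in muscle genes, was present in 1.573% of all windows and in 3 of the 18 found for the fast fibre and sarcomere list. In Acta1 the CArG box lies 73 to 64 bases, and TATAAA 7 to 2 bases, before the start used for its window. The GENCODE M21 annotation starts this minus-strand gene downstream of there, at position 123894751, so such distances depend on the annotation. A match describes letters in this window and not a bound site.

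Among skeletal muscle transcripts, those of fast fibres predominated. The skeletal actin Acta1 stood at 8189, 6959 and 6779 CPM. Atp2a1, the calcium pump of fast fibres, stood at 8578, 7842 and 7346 CPM. Among the myosin heavy chains Myh4, of the fastest (IIb) fibres, was first at 1580 TPM on average, followed by Myh1 (IIx) at 955 TPM and Myh2 (IIa) at 9.86 TPM. Myh4 exceeded Myh1 by 1.65 ± 0.131 times and Myh2 by 171 ± 50.2 times per length. Myh7, the slow heavy chain, stood at 0.147, 0.143 and 0.258 CPM, and the slow light chains Myl2 and Myl3 and the slow troponin Tnnc1 were at or below 0.269 CPM in every library.

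The 24 genes of fast fibres and the shared sarcomere summed to 52393, 47636 and 44152 CPM, highest in replicate 1. In that library 20 of the 24 were highest, beside 43.9% of all genes, and none was 2-fold apart. Myh4 was an exception, at 7116, 7703 and 6043 CPM. Troponin T of fast fibres (Tnnt3) stood at 3850, 3212 and 3161 CPM and creatine kinase (Ckm) at 4049, 3486 and 3524 CPM. Myoglobin, the oxygen store listed here with slow fibres, held 96.1% of the counts of that list, at 2637, 2347 and 1993 CPM, so its sum is no measure of slow fibres. Other members of that list were counted at moderate levels: slow troponin T (Tnnt1) stood at 29.4, 28.6 and 18.4 CPM, calsequestrin 2 (Casq2) at 35.0, 30.5 and 25.1 CPM and Myoz2 at 41.1, 34.5 and 28.4 CPM. Slow troponin I (Tnni1) was lower, at 2.79, 2.28 and 2.46 CPM. Developmental and specialised myosins summed to 6.81 ± 1.35 CPM. The embryonic Myh3 stood at 0.783, 0.672 and 0.0320 CPM. Satellite cell and junction genes were low but counted in every library, with Pax7 at 1.61, 1.496 and 1.54 CPM and the adult acetylcholine receptor subunit Chrne at 5.90, 7.59 and 5.51 CPM.

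Gland transcripts were nearly all sebaceous. The 10 sebaceous genes summed to 2908, 1880 and 1457 CPM, and all 10 were highest in replicate 1, as were 43.9% of all genes. In 5 of the 10 the libraries were 2-fold or more apart, beside 0.380% of all genes that were that far apart and highest in replicate 1. Scd1, the stearoyl-CoA desaturase of sebocytes, which adipocytes also express, stood at 1467, 985 and 665 CPM. Elovl3, which lengthens fatty acids, stood at 275, 132 and 130 CPM. The wax ester synthases Awat1 and Awat2 stood at 120, 57.0 and 54.8 CPM and at 9.93, 5.13 and 3.55 CPM, and Dgat2l6 at 9.66, 5.38 and 4.29 CPM. The median log2 ratio over the list was 0.99. Without replicate 1, none of the 10 was 2-fold apart, and without replicate 3, 2 were.

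Salivary gland products were close to 0. Of 23 salivary and mucous gland genes, 11 had no count in any library, among them the mucin Muc5b and the secretory proteins Smgc, Pip, Prb1 and Dcpp1. The highest were the amylase Amy1 at 13.8, 12.8 and 11.5 CPM, the carbonic anhydrase Car6 at 11.9, 9.94 and 6.63 CPM and the water channel Aqp5 at 3.40, 6.45 and 6.59 CPM. These 3 were the members above 5 CPM on average. Amy1 is also expressed outside salivary glands.

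Hair follicle transcripts were present in all 3 libraries. Of the 21 hair keratins matched, 20 reached 1 CPM in every library, as did 52 of 58 keratin-associated proteins, which cross-link keratin in the hair shaft. Krt71, of the inner root sheath, was the highest hair keratin at 406 TPM on average, at 724, 699 and 542 CPM, and Krt27 and Krt25 followed at 248 and 231 TPM. The shaft keratins Krt81 and Krt33a reached 90.5 and 87.3 TPM. Krtap7-1 and Krtap8-1 were the highest keratin-associated proteins, at 273 and 267 TPM. Trichohyalin (Tchh), which hardens the inner root sheath and is also made in tongue epithelium, stood at 317, 466 and 324 CPM.

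Hair keratins were lower in replicate 3 than in the others in all 20 members above 5 CPM, beside 51.0% of all genes, with sums of 2690, 2411 and 2003 CPM. With TMM scaling this held for 19, beside 33.3% of all genes, and with median-ratio scaling for 18, beside 29.6%. Keratin-associated proteins were highest in replicate 1 in 43 of 47, beside 43.9% of all genes. Only Krtap19-9b was 2-fold apart, at 38.9, 17.6 and 24.3 CPM, and counts among these similar genes may be shared.

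Fibroblast and matrix genes were highest in replicate 2. The sums were 3549, 4872 and 3492 CPM. Replicate 2 was highest in 21 of 23 genes, beside 37.0% of all genes, or in 20 with TMM scaling, beside 27.9%. Col3a1 stood at 696, 1042 and 734 CPM, Col1a2 at 359, 620 and 427 CPM and Col1a1 at 197, 384 and 252 CPM, all fibrillar collagen chains. The small proteoglycan decorin (Dcn) stood at 619, 731 and 557 CPM and the collagen-binding Sparc at 520, 615 and 458 CPM. None of the 23 was 2-fold apart. Cartilage, bone and tooth genes summed to 1.73 ± 0.856 CPM, with no count for Ibsp, Amelx, Enam or Dspp.

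Adipocyte genes were lowest in replicate 3 in all 10 members above 5 CPM, as were 51.0% of all genes compared. Of the 10, 3 were 2-fold apart, beside 0.823% of all genes, and 0.398% that far apart and lowest in replicate 3. Adiponectin (Adipoq) stood at 20.97, 21.6 and 10.5 CPM, the lipid droplet protein Plin1 at 11.8, 11.9 and 5.12 CPM and resistin (Retn) at 12.8, 7.13 and 4.80 CPM. Lpl, which other cells including muscle express, held 45.9% of the list. Ucp1, the marker of brown fat, was at or below 0.0734 CPM. The 3 calls were 2 without replicate 1, 2 without replicate 2 and 0 without replicate 3, and 2 with either other scaling method.

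Of the vessel class, erythroid transcripts made up the largest list at 1169 ± 319 CPM. Hbb-bs stood at 708, 622 and 382 CPM and Hba-a2 at 336, 361 and 214 CPM, and all 5 erythroid genes were lowest in replicate 3, as were 51.0% of all genes. The globin pairs are near-identical copies. Blood endothelium summed to 362, 445 and 342 CPM, with Pecam1 at 49.1, 59.3 and 45.8 CPM and Vwf at 28.2, 46.7 and 33.5 CPM. In 15 of its 16 genes above 5 CPM replicate 2 was highest, beside 37.0% of all genes. Smooth muscle and pericyte genes summed to 472 ± 35.7 CPM, led by Rgs5 at 113, 121 and 98.2 CPM. Lymphatic endothelium summed to 116 ± 14.6 CPM, with the chemokine Ccl21a at 48.7, 53.4 and 58.2 CPM.

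Myelinating Schwann cells supplied most nerve transcripts, at 496 ± 65.8 CPM. Periaxin (Prx), a protein of peripheral myelin, stood at 49.0, 63.9 and 50.9 CPM. All 5 members above 5 CPM were highest in replicate 2, as were 37.0% of all genes. Neuronal genes were at or near 0 apart from Tubb3 at 17.1, 15.2 and 12.0 CPM and Stmn2 at 6.12, 10.7 and 5.54 CPM. The axonal neurofilament Nefl was at or below 0.0979 CPM and Scn9a had no count. Melanocyte genes summed to 5.08 ± 1.26 CPM, led by Dct at 3.43, 2.07 and 2.05 CPM, and taste and Merkel cell genes to 4.42 ± 0.898 CPM.

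Immune transcripts were a small part of the libraries, at 0.0992, 0.102 and 0.0866% of the counts. Over the 39 members above 5 CPM the median log2 ratio was 0.36, beside 0.21 over all genes. The 7 genes shared by leukocytes summed to 121, 119 and 121 CPM, and Ptprc, which encodes CD45, stood at 11.3, 11.05 and 11.5 CPM. Macrophage genes led the class at 430, 443 and 353 CPM. The complement subunit C1qa stood at 38.7, 39.3 and 31.3 CPM and Lyz2, the macrophage lysozyme, at 154, 129 and 103 CPM. Mast cells came second with 186, 209 and 151 CPM. Their chymases Mcpt4 and Cma1 stood at 60.1, 64.6 and 48.9 CPM and at 37.5, 41.7 and 29.5 CPM, and the protease Cpa3 at 29.2, 36.0 and 25.1 CPM. None of the 11 macrophage and 6 mast cell genes above 5 CPM was 2-fold apart.

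Transcripts of ILC1, the labelled cell type, were scarce. The 21 genes of ILC1 and natural killer (NK) cells summed to 37.2, 38.2 and 44.6 CPM, or 0.00372, 0.00382 and 0.00446% of the counts, and 9 of the 21 reached 1 CPM in every library. The highest was the integrin Itga1 at 10.3, 12.4 and 10.2 CPM, 27.5% of the list, which smooth muscle and fibroblasts also express. Tnfsf10, the death ligand TRAIL, which interferon induces, stood at 4.09, 5.49 and 7.07 CPM, and Gzmc, a granzyme, at 4.58, 4.77 and 6.66 CPM. The integrin Itgae stood at 4.89, 4.10 and 5.38 CPM and the cytokine receptor chain Il2rb at 3.06, 2.85 and 4.10 CPM.

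Defining ILC1 and NK genes were counted at low levels. Ncr1, the NKp46 receptor, had 30 counts over the 3 libraries, 0.299 CPM with an exact 95% Poisson interval of 0.202 to 0.428. Klrb1c, which encodes NK1.1 in B6 mice, had 44 counts, 0.439 CPM (0.319 to 0.590). Tbx21, the transcription factor T-bet, stood at 1.03, 0.998 and 1.15 CPM. Eomes, the factor of conventional NK cells, had 2 counts and interferon gamma (Ifng) 4. The other members were Klrk1, Nkg7, Cxcr6 and Xcl1, with pooled levels of 1.51, 1.54, 1.57 and 1.16 CPM, and Klrd1, Gzma, Gzmb, Prf1, Ccl5, Zfp683 and Txk, with 0.0998 to 0.569 CPM. These levels go against the ILC1 label, since Krt13 alone stood at 29012 CPM or more in each library, and the libraries are described here as whole mucosa.

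Other lymphocyte lists were similarly low once genes that epithelium also uses were set aside. Bcl11b, which keratinocytes express, held 57.1% of the T cell list, whereas Cd3e stood at 1.74, 0.998 and 1.15 CPM and Cd8a at 0.220, 0.178 and 0.224 CPM. Trbc2, a T cell receptor constant region, was higher, at 7.83, 6.53 and 5.09 CPM. Sox13 held 86.6% of the gamma delta T cell list, and Trdc, the delta chain constant region, stood at 1.54, 0.926 and 1.02 CPM. Gata3, used by type 2 innate lymphoid cells and also by skin epithelium, stood at 31.8, 27.1 and 16.9 CPM. Il17a had at most 0.0489 CPM and Il13 at most 0.107 CPM. Ighm held 83.9% of the B cell list, and Ms4a1, which encodes CD20, had no count.

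Most granulocyte markers were near 0. The neutrophil genes Ly6g and Ngp and the eosinophil and basophil genes Epx and Mcpt8 had no count, each allowing up to 0.0299 CPM by the same limit of 3 counts. Cxcr2, a chemokine receptor of neutrophils, was counted at 3.01, 3.10 and 3.78 CPM and the growth factor receptor Csf3r at 0.636, 0.499 and 0.416 CPM. Lactoferrin (Ltf), which epithelia also secrete, held 68.0% of the neutrophil list at 7.85, 8.52 and 9.41 CPM. Langerhans cells were represented by Cd207 (langerin) at 7.49, 4.67 and 6.31 CPM. The class II antigen presentation genes were even, with Cd74 at 288, 257 and 278 CPM and H2-Aa at 121, 107 and 112 CPM, and 0 of 6 members above 5 CPM were 2-fold apart.

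Epithelial defence and type 2 genes included some of high level. Slpi, an inhibitor of neutrophil proteases, stood at 1007, 1008 and 1356 CPM and the beta-defensin Defb4 at 80.4, 87.0 and 103 CPM. Neutrophil-recruiting Cxcl1 was at or below 0.416 CPM. S100a8, a calprotectin subunit, was 2-fold apart and highest in replicate 1, at 11.01, 1.96 and 2.88 CPM. Its partner S100a9, below the 5 CPM filter, had the same order of libraries as Sprr2i, at 9.69, 0.748 and 3.14 CPM. Chil4, a chitinase-like protein, stood at 1946, 1236 and 2222 CPM and held 65.9% of the type 2 list. Its reads may be shared with Chil3. Alox15, a lipoxygenase, was 2-fold apart at 124, 195 and 301 CPM, and the arginase Arg1 stood at 335, 438 and 611 CPM. The alarmin Il33 stood at 59.6, 74.6 and 84.8 CPM.

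Most genes were alike in the 3 libraries. Among the 11303 genes that averaged at least 5 CPM, the median gene spanned 1.16-fold from lowest to highest library, after 0.5 CPM was added to each value, the 90th percentile 1.38-fold and the 99th percentile 1.92-fold. In all, 93 genes were 2-fold or more apart. Of these, 43 were highest in replicate 1 (0.380% of all genes compared), 12 in replicate 2 (0.106%) and 38 in replicate 3 (0.336%). Replicate 3 was lowest in 45 (0.398%), replicate 1 in 39 (0.345%) and replicate 2 in 9 (0.0796%). Replicate 2 lay between the other libraries in 72 of the 93. Without replicate 1 there were 17 such genes and without replicate 3 there were 23. Of the 93, 26 belonged to a list.

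**Figure D4:**
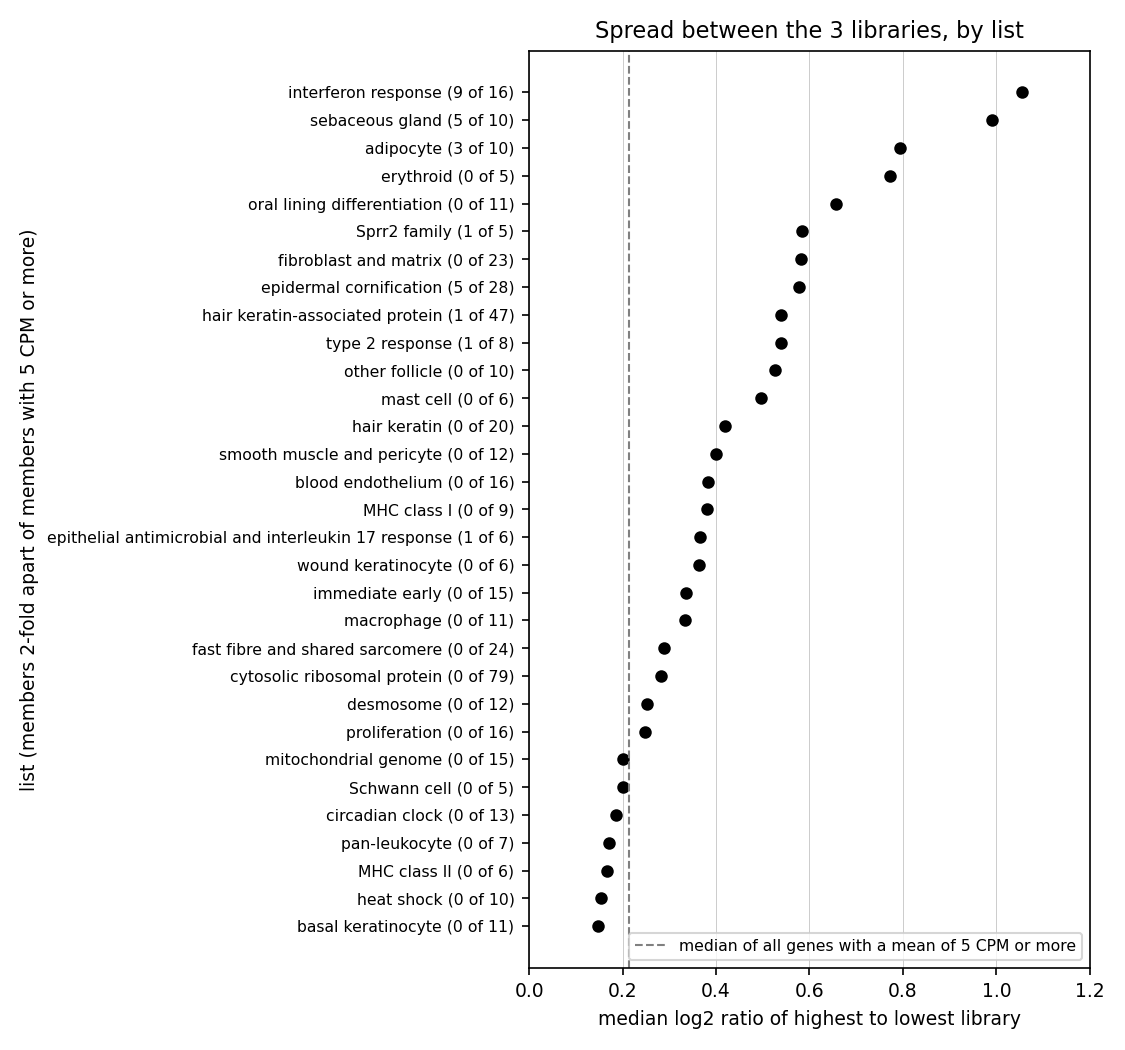
Median log2 ratio of the highest to the lowest library for each list with 5 or more members at a mean of 5 CPM, with the number 2-fold apart of those members in brackets. The interferon response list, at 1.05, and the sebaceous gland list, at 0.99, lie farthest from the median of all genes, 0.21, drawn as a dashed line.

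The interferon response list varied most. Interferons are cytokines that induce antiviral effectors and guanosine triphosphatases that act on intracellular microbes. Of 16 members with a mean of 5 CPM or more, 9 were 2-fold or more apart, beside 0.823% of all genes, and 0.345% with the lowest level in replicate 1. All 16 were lowest in replicate 1, as were 27.5% of all genes. Replicate 3 was highest in 13, beside 19.1% of all genes, and replicate 2 in 3. With TMM or median-ratio scaling replicate 3 was highest in 14, beside 31.9 and 35.8% of all genes, and replicate 2 in 2. The median log2 ratio of highest to lowest library was 1.05.

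Ifit1, which binds viral RNA, stood at 4.70, 16.9 and 26.7 CPM. The ubiquitin-like Isg15 stood at 13.3, 32.4 and 59.5 CPM, and Usp18, which removes it from proteins, at 4.16, 8.77 and 11.4 CPM. Replicate 1 lay well below both other libraries for these genes. Oasl2, of the oligoadenylate synthetase family, stood at 9.37, 27.3 and 40.2 CPM and the transcription factor Irf7 at 13.5, 22.5 and 30.6 CPM. The immunity-related GTPases followed the same order, with Irgm1 at 16.7, 26.7 and 34.3 CPM, Irgm2 at 11.3, 19.4 and 24.6 CPM and Igtp at 6.84, 11.7 and 16.3 CPM. Iigp1 was highest in replicate 2, at 4.72, 11.3 and 9.73 CPM. The transcription factor Irf1 was not 2-fold apart, at 13.3, 16.8 and 18.4 CPM. The chemokine Cxcl9 lay under the filter, at 2.64, 4.70 and 6.85 CPM.

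All 9 genes of MHC class I presentation were also highest in replicate 3, beside 19.1% of all genes. With TMM scaling all 9 again were, beside 31.9%. Their median log2 ratio was smaller, at 0.38, and none was 2-fold apart. Tap1, the peptide transporter, stood at 38.6, 44.2 and 57.1 CPM and H2-K1 at 349, 327 and 375 CPM. Beside this, the leukocyte list stood at 121, 119 and 121 CPM and the ILC1 and NK list at 37.2, 38.2 and 44.6 CPM. Krt4 and Krt13 had the same order of libraries as the interferon genes. Their part in this result was not tested. Without replicate 1, none of the interferon members was 2-fold apart, without replicate 2, 8 were, and without replicate 3, 4 were.

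The motif of GAAA, any 2 bases and GAAA, which holds the repeats of the interferon-stimulated response element, was searched on both strands of the promoter windows. It was present in 11 of the 15 windows found for the interferon list, 73.33%, and in 3.489% of all windows. In Isg15, printed above, 3 matches overlap each other between 78 and 57 bases before the start. Ifit1 has 2 separate matches on its opposite strand, 104 to 95 and 85 to 76 bases before the start used for its window. GENCODE M21 starts this gene upstream of there, at position 34640871. Cxcl9, Irf1, Irf7 and Oasl2 have no match in their windows. Of the genes 2-fold apart, those highest in replicate 3 held the motif in 11 of 25 windows. Those highest in replicate 1 held it in 1 of 36. Among all genes averaging 5 CPM or more, 260 of 8882 windows did, 2.927%. Both 2-fold sets were picked by the values of these libraries. The first shares Isg15, Ifit1, Igtp, Irgm1 and Irgm2, all with the motif, with the interferon list, so its count is no separate support.

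Of the 30 most variable genes that could be named, 9 further genes known to be induced by interferon stood outside the lists: Oas1a, Oas2, Oas3, Oasl1, Apol9a, Apol9b, Dhx58, Ddx60 and Rtp4. All 9 were lowest in replicate 1 and highest in replicate 3, as were 36 of the 93 genes 2-fold apart. Of all genes compared, 0.336% were that far apart and highest in replicate 3. The 9 were picked from the largest ratios of these same libraries, so their shared order is no separate support. Oas1f, another Oas gene 2-fold apart, had the opposite order, at 17.6, 10.9 and 7.49 CPM. Oas3, an oligoadenylate synthetase that activates RNA decay, stood at 2.01, 7.52 and 11.3 CPM, and Dhx58, a sensor of viral RNA, at 3.57, 10.2 and 10.7 CPM. The count of 9 was made after the values were seen, and the similar sequences within the Oas and Apol9 families leave the level of each uncertain.

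Several genes outside the lists were also highest in replicate 3. Dhrs2, a short-chain dehydrogenase, had the largest ratio of all genes compared, at 2.08, 1.89 and 13.3 CPM, and replicates 1 and 2 lay together far below replicate 3. Adenosine deaminase (Ada), which is abundant in the upper epithelium of the mouse mouth and gullet, was the most abundant of the 30, at 1169, 1601 and 3358 CPM. Bcat1, which transfers amino groups of branched-chain amino acids, stood at 9.05, 16.6 and 24.5 CPM and Acsm2 at 5.24, 7.98 and 14.6 CPM. Further genes with this order, picked after their values were seen, were the cytochrome P450 genes Cyp2f2, at 397, 535 and 870 CPM, and Cyp2a5, at 176, 202 and 367 CPM, and the secretoglobin Scgb1a1, at 87.2, 145.5 and 196 CPM.

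Genes highest in replicate 1 and lowest in replicate 3 included Pctp, a phosphatidylcholine transfer protein, at 28.1, 17.1 and 9.51 CPM, haptoglobin (Hp) at 25.7, 16.1 and 9.80 CPM, the steroid dehydrogenase Akr1c18 at 19.4, 14.9 and 7.68 CPM and the late envelope gene Lce6a at 14.3, 11.8 and 4.45 CPM. Ccer2 had the same order with a wider gap to replicate 3, at 34.8, 28.5 and 7.04 CPM. Chil1, a chitinase-like protein, was lowest in replicate 2, at 15.0, 4.49 and 9.09 CPM, the order seen for Sprr2i and S100a8. The peptide transporter Slc15a2 was highest in replicate 2, at 2.94, 8.23 and 4.13 CPM.

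**Figure D5:**
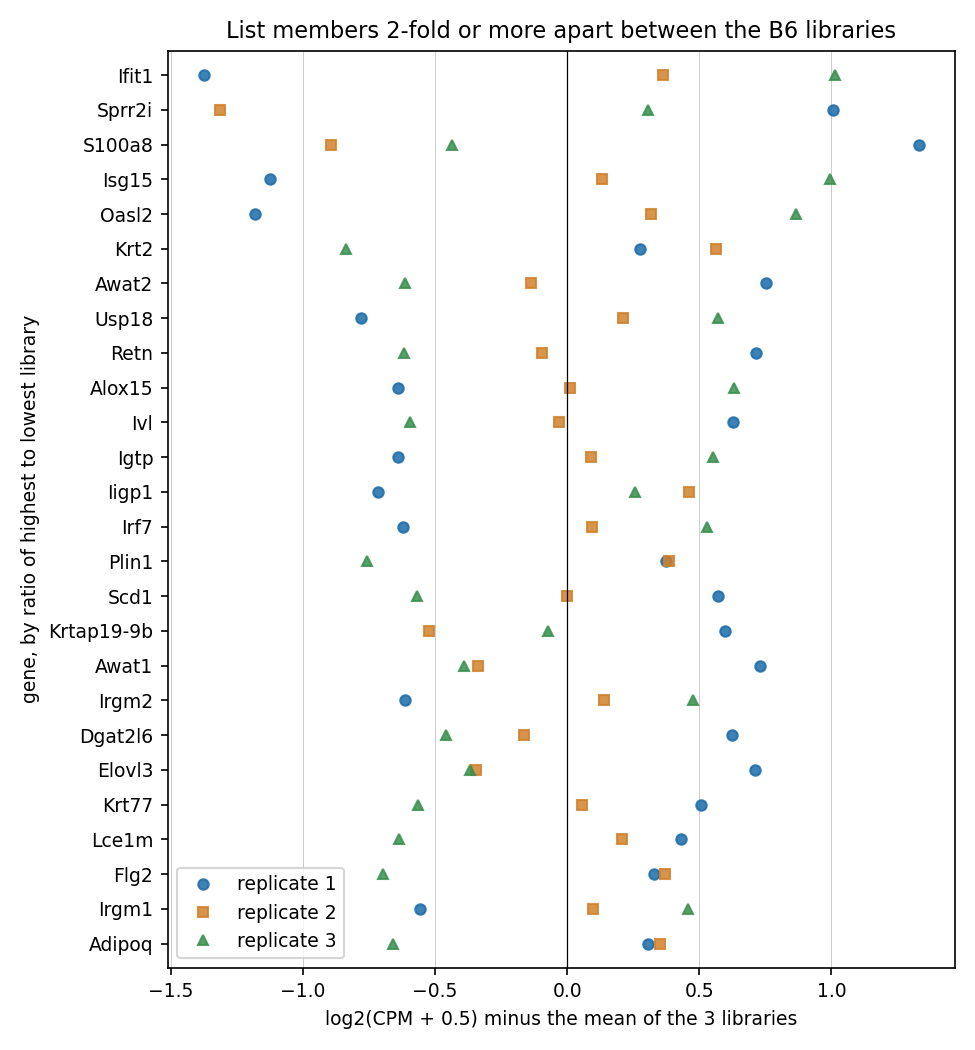
The 26 list members that were 2-fold or more apart, ordered by the ratio of highest to lowest library, each drawn as log2(CPM + 0.5) minus its mean over the 3 libraries. Replicate 1 lies at the left for Ifit1, Isg15, Oasl2 and the other interferon response genes, and at the right for the sebaceous genes Awat2, Scd1, Awat1, Dgat2l6 and Elovl3.

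Other groups held no gene above 5 CPM that was 2-fold apart. Cytosolic ribosomal protein genes summed to 51265, 42197 and 45053 CPM, with 0 of 79 members 2-fold apart. Of the 79, 78 were highest in replicate 1, beside 43.9% of all genes. With median-ratio scaling 75 were, beside 36.2%. Heat shock genes varied little, with Hspa8, a constitutive chaperone, at 1248, 1160 and 1153 CPM and a median log2 ratio of 0.15. The clock genes Tef, Dbp and Nr1d1 stood at 304, 312 and 274 CPM, 147, 145 and 141 CPM, and 142, 173 and 155 CPM. None of the 13 clock genes above 5 CPM and none of the 15 immediate early genes above it was 2-fold apart. The induced chaperone Hspa1b stood at 107, 114 and 110.6 CPM and the early gene Dusp1 at 93.9, 109 and 98.4 CPM.

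The least variable gene with a mean of 50 CPM or more was Iars2, the mitochondrial isoleucyl-tRNA synthetase, at 80.0 CPM in replicates 1 and 2 and 80.2 in replicate 3. It was followed by Kremen1 at 123, 122 and 122 CPM, and Trim29, abundant in squamous epithelium, at 789, 792 and 793 CPM. Klc1, Gosr2, Srp54a, Coro1c, Acsbg1, Map2k3 and Srxn1 completed the 10 least variable, each within 1.01-fold from lowest to highest.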

How the data were processed

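Per the labels' protocols, libraries were made with a stranded kit for mRNA. The authors deposited expected counts, as space-padded pairs of symbol and count. STAR, RSEM and GRCm38 were used per the submitters' processing notes, while no version, annotation or strand setting is given in the sources used here. Reads may therefore be shared between antisense or overlapping genes and between close copies. Each library held 55450 lines, and 110 names on several lines were summed, leaving 55339 names. Of these, 27 looked like dates and were kept, and 55315 matched GENCODE M21 by symbol. It was the source of transcript lengths and of coordinates other than those of the promoter windows. Between 2922 and 3171 values per library were not whole, and all were used unrounded.

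CPM were taken over the plain library total. TPM used the median length of the coding transcripts of a gene. The spread of a gene was the ratio of highest to lowest library after adding 0.5 CPM, among genes averaging at least 5 CPM, with 2-fold or more as the call. With 3 libraries of 1 group there is no contrast and no test. edgeR 4.0.16 in R 4.3.3 was used for TMM factors and for the common biological coefficient of variation, 10.4%. Other computations used Python 3.11.15, pandas 2.3.3, scipy 1.17.1 and matplotlib 3.10.9. The spread was first run on simulated counts with less variation than these libraries, so that run gives no error rate for the calls here.

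The members and the gene lists were chosen with earlier results of these data known. Genes were named by rule: the 25 most abundant nuclear genes, the 5 highest mitochondrial genes, the 5 members of each list highest per length, every member of a list of 8 or fewer genes, every ILC1 and NK member, list members 2-fold apart, the 30 most and 10 least variable genes (the latter at 50 CPM or more). Predicted genes, pseudogenes and mitochondrial genes were left out of the variable genes. Some further list members were chosen after their values were seen. The hair keratin Krt85 was not matched and was not analysed here. A few genes that the rule names are not reported here. Alternatives were other library scalings, filters, pseudocounts, thresholds and transcript lengths, and each library left out in turn.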

Additional observations from a re-analysis of the deposited data

How the results depend on the processing

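The summed share of each of the 8 tissue classes moved by less than 1 SD under every library scaling. So did that of the 20 most abundant nuclear genes, 15.3% ± 1.54 of the counts. The same held with each library left out, but for the class shares this check could not come out otherwise. Leaving out 1 of 3 libraries always moves a mean by less than the SD of the 3. The scalings too could move shares only a little. Library sizes were 0.961 to 1.02 of the totals with TMM or median-ratio factors, and 0.940 to 0.946 without mitochondrial genes. Of the single lists, 9 moved by 1 SD or more without mitochondrial genes and 40 did not. All 49 stayed within 1 SD with TMM or median-ratio factors. The number of genes 2-fold apart, 93, depended on the threshold and filter. It was 258 with no filter on the mean, 181 at 1 CPM or more, 35 at 20 CPM or more, 559 at 1.5-fold and 12 at 3-fold. With a library left out it ran from 17 to 85, and fewer libraries give fewer wide ratios by construction. TMM factors gave 86, median-ratio factors 83 and totals without mitochondrial genes 97. Pseudocounts of 0.1 and 1 CPM gave 100 and 80. Per length, 10 or 11 of the 20 most abundant nuclear genes were kept. The median gene deviated by at most 0.05 on the log2 scale from the mean of its 3 libraries. Levels under 0.0734 to 0.107 CPM, 3 counts, were not separable from 0 in a single library. No paired analysis was possible because the 3 libraries are 1 group and share no replicate number with another group compared here.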
